A study of Mus musculus with 2 samples.

Results

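The genes described here are the 10 components of the IL-15, IL-2 and IL-7 receptor axis, namely the ligand *Il15*, the receptor chains *Il2rb*, *Il2rg*, *Il2ra*, *Il15ra* and *Il7r*, the kinases *Jak1* and *Jak3*, and the transcription factors *Stat5a* and *Stat5b*. They were chosen by gene name, through the RefSeq accession of each array probe, from 20887 named genes, and not by their values. They are covered by 13 probes of 55679, with 2 probes each for *Il15ra*, *Jak3* and *Stat5b* and 1 probe for each of the other 7 genes.

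IL-15 is made by epithelial and myeloid cells and held on their surface by IL-15Rα, from where it is presented to neighboring lymphocytes that carry the IL-2Rβ chain and the common γ chain. IL-2 uses the same pair of chains together with IL-2Rα, and IL-7 uses the common γ chain together with IL-7Rα. Jak1 and Jak3 bound to these chains phosphorylate Stat5a and Stat5b, which induce genes of survival and growth, and intestinal intraepithelial lymphocytes (IELs) that carry CD8αα are known to depend on IL-15.

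The cells were TCRαβ+CD8αα+ IELs, sorted from the small intestine of C57BL/6 mice, after removal of cells positive for CD4, TCRγδ or CD8β. The group named Control has the genotype Rbpjf/f, and the group named RFF4 has CD4-Cre Rbpjf/f, in which Cre under the *Cd4* promoter deletes *Rbpj*, the transcription factor of Notch signaling, in T cells from the CD4-expressing stage of the thymus on. The label of the Control group names no Cre, while the paper on the study describes control mice with wild-type *Rbpj* and CD4-Cre, so whether the control cells carry Cre is not settled by the sources used here. Mice of both sexes were 8 to 12 weeks of age by the labels, RNA was pooled over several isolations, and 1 array of 1 color was hybridized for each group, which leaves no replicate check, no test across samples and no p-value.

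The 2 arrays share a slide. Each holds 59305 spots of gene probes, of which 57.2% on the Control array and 49.7% on the RFF4 array were well above background by the scanner software. The 75th percentile of the signal was 2.25 times higher on the Control array. The alternative called spike-in scaling sets 8 control RNAs added to the samples equal on the arrays. The targeted gene itself did not check the labels, because *Rbpj* was read by 2 probes with levels 0.32 and 0.82 higher on the array labelled RFF4 at this scaling but differences of -0.80 and -0.30 after spike-in scaling, and whether these probes lie in the deleted exons is not given in the sources used here. *Heyl* and *Dtx1*, known targets of Notch signaling that were looked up after the other values were seen, had differences of -3.80 and -3.63, lower on the array labelled RFF4. Genes of T cell identity were present on both arrays, with *Cd3e* at 8.10 and 8.44 and *Cd8a* at 6.24 and 6.18, and *Cd4*, which the sort should have removed, was at 1.67 and 1.80. All 14 epithelial markers (median difference 1.57) were higher on the array labelled RFF4, where 48.9% of all genes were. So were all 14 macrophage and dendritic cell markers with a difference (median 2.31), 2 of them known only as bounds. Under spike-in scaling 12 and 10 of these were above 0. After quantile normalization and after normexp 13 of the macrophage and dendritic cell markers were above 0.

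Levels are given as log2 signal relative to the 75th percentile of the same array, so that 0 is the signal at that percentile, and differences are RFF4 minus Control on the log2 scale. The error beside a difference is the measurement error that the scanner software attaches to the spots. It is about 10% of the signal for bright spots, which gives 0.20 for a difference, and covers technical error only. Since each probe binds with its own strength, levels are compared between arrays for the same probe and not between genes. The summed level given for a list of markers is the log2 of the sum of its scaled signals, in which bright probes weigh most, so that it can differ from the median difference of the list. Signals of 9 of the 10 genes, on 12 of the 13 probes, stood well above background on the Control and the RFF4 array, and that of *Il15* did so on neither.

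**Figure D1:**
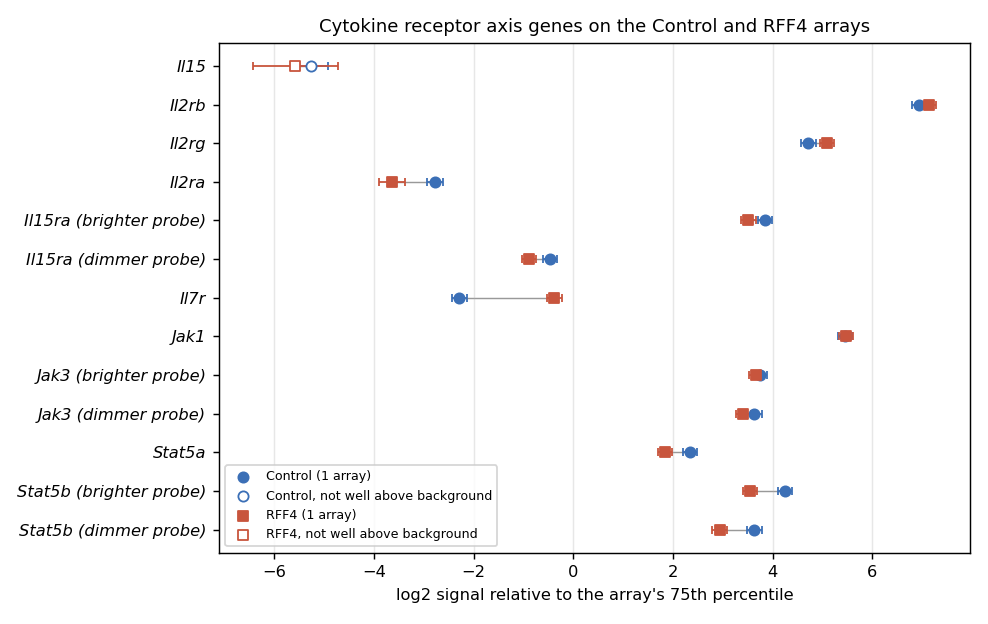
Level of each of the 13 probes on the Control array (blue circles) and the RFF4 array (red squares), as log2 signal relative to the 75th percentile of the array, with error bars from the scanner software and open symbols for signals not well above background. The points of *Il7r* are the farthest apart, at -2.29 and -0.38, and those of *Jak1* overlap at 5.45 and 5.47.

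The ligand *Il15* gave a signal of 13.3 over a local background of 36 on the Control array and 4.75 over 44 on the RFF4 array. Neither was well above background, so that no difference is given. The *Il15* transcript was not detectable in these sorted lymphocytes at this sensitivity.

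The 5 receptor chains did not differ between the arrays in the same way. *Il7r* was 3.75-fold higher on the array labelled RFF4, *Il2rg* was 1.29-fold and *Il2rb* 1.15-fold higher, and *Il15ra* and *Il2ra* were lower by 1.26-fold and 1.83-fold. Of the 9 genes with a difference, 1 was more than 2-fold higher, where 12.3% of all 13513 genes with a difference were, and 0 were more than 2-fold lower, where 5.05% of all genes were. At 4-fold, 0 of the 9 were higher and 0 lower, beside 1.85% and 0.585% of all genes.

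*Il7r*, the chain that makes a cell responsive to IL-7 and that marks naive and memory T cells, gave a signal of 105 on the Control array and 174 on the RFF4 array. It was brighter on the RFF4 array before any scaling, by 1.67-fold, although the array as a whole was dimmer. The scaled level was -2.29 on the Control array and -0.38 on the RFF4 array, a difference of 1.91 ± 0.21. The spread between repeated spots at such signals is smaller still, with an SD of 0.14 for a difference. Of all genes with a difference, 294 (2.18%) had a larger one. Dim probes differed upward more often than bright ones on these arrays, and among the 1619 genes of similar signal to *Il7r* the share over 2-fold higher was 19.6% and the share above *Il7r* was 3.27%. The difference of *Il7r* was above 0 under all 10 alternatives of processing, from 0.78 to 1.99, and under spike-in scaling, at 0.78, it was below 2-fold.

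Markers of other cells that can carry the IL-7 receptor stand beside this value. All 7 markers of naive and circulating T cells were higher on the array labelled RFF4, by a median of 0.98, where 48.9% of all genes were higher. Over 2-fold higher were 3 of the 7, among them *Ccr7* at 1.39 and *Klf2* at 1.25, where 12.3% of all genes were. The summed level of the 7 markers was 2.93 on the Control array and 3.84 on the RFF4 array. Under spike-in scaling 3 of the 7 were above 0, with a median of -0.14. Of 8 markers of innate lymphoid cells, 5 gave a difference, 1 of them a bound. Above 0 were 4 and below 0 was 1, with a median of 1.25. Over 2-fold, 3 were higher, among them *Areg* at 1.89, and 1 was lower, *Kit* at -1.46, beside 12.3% and 5.05% of all genes. Under spike-in scaling 3 of the 5 were above 0, with a median of 0.13. The summed level of this list was 4.37 on Control and 4.11 on RFF4. *Il1rl1* and *Il23r* were not well above background on either array. The part of these cells in the *Il7r* value was not tested, and in pooled RNA a different number of cells of a type and a different amount of RNA per cell cannot be told apart.

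*Il2rb*, the signaling chain shared by the receptors of IL-15 and IL-2, had a signal of 62458 on the Control array and 31882 on the RFF4 array. Its level was 6.94 on Control and 7.14 on RFF4, a difference of 0.20 ± 0.20, which is no larger than its error. The sign depended on the scaling. The difference was -0.30 after quantile normalization, -0.10 after cyclic loess, -0.0036 after normexp background correction and -0.92 after spike-in scaling. It was above 0 in the other 6 alternatives, at 0.02 after median scaling. In the rest it was 0.19 to 0.20, and these alternatives barely change a bright gene with 1 probe.

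*Il2rg*, the common γ chain shared by the receptors of IL-2, IL-4, IL-7, IL-9, IL-15 and IL-21, had signals of 13374 and 7684 and levels of 4.71 on Control and 5.08 on RFF4. The difference of 0.37 ± 0.20 was larger than its error and lay above that of 72.2% of all genes. Genes of similar signal had a median difference of 0.15, and 31.3% of them lay above *Il2rg*. The difference of *Il2rg* was above 0 in 9 of 10 alternatives and was -0.75 after spike-in scaling. The differences of the 2 chains that together make the signaling receptor for IL-15 lay within 0.17 of each other, less than the software error of 0.29 for a comparison of 2 differences, but 0.57 apart after quantile normalization and 0.34 after cyclic loess, both larger than that error.

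*Il15ra*, which binds IL-15 with high affinity, was read by 2 probes with nearly the same result. The brighter had levels of 3.85 on Control and 3.51 on RFF4, a difference of -0.33 ± 0.20. The dimmer had levels of -0.47 and -0.89, a difference of -0.42 ± 0.21, so that the probes lay 0.086 apart. The difference of *Il15ra* was below 0 in all 10 alternatives. Relative to *Il15ra*, *Il2rb* was 1.45-fold and *Il2rg* 1.63-fold higher on the array labelled RFF4 than on the Control array, by 0.53 ± 0.29 and 0.70 ± 0.29. A constant of scaling leaves these gaps as they are, whereas the gap between *Il2rb* and *Il15ra* was 0.04 after quantile normalization and 0.27 after cyclic loess, within the error, and that between *Il2rg* and *Il15ra* was 0.61 after both.

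*Il2ra*, the high-affinity chain of the IL-2 receptor and a marker of activated and regulatory T cells, was dim on both arrays. Its signal was 74.6 over a local background of 32 on the Control array and 18.1 over 39 on the RFF4 array. The levels were -2.77 and -3.65, and the difference of -0.87 ± 0.30 was the lowest of the 9 genes, with 7.09% of all genes below it. Genes of similar signal had a median difference of 0.48, and 4.20% of them lay below *Il2ra*. The sign turned to 0.23 after normexp background correction, and the difference passed 2-fold after median scaling (-1.05) and spike-in scaling (-1.99). Of the markers of CD4 and regulatory T cells, *Tnfrsf4* (-1.21) and *Ctla4* (-1.01) were also over 2-fold lower, and *Foxp3*, the defining factor of regulatory T cells, was dim and higher at 1.20, with levels of -5.02 and -3.81. The summed level of this list was 4.50 on Control and 4.13 on RFF4, and its part in the *Il2ra* value was not tested.

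**Figure D2:**
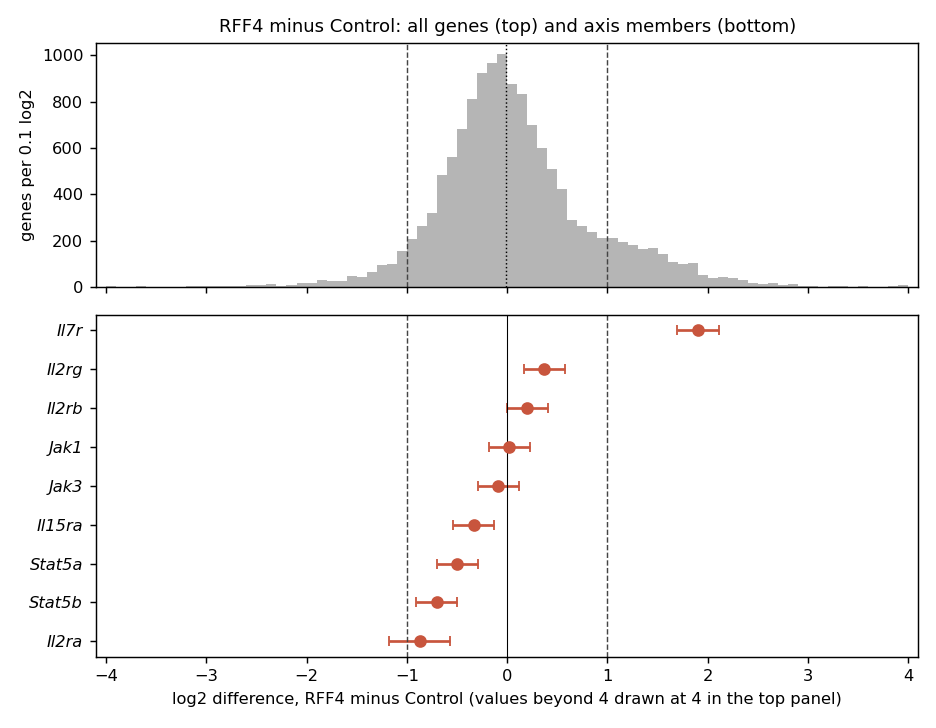
Top, number of genes per 0.1 log2 of the RFF4 minus Control difference, for 13513 genes, with a dotted line at their median of -0.015. Bottom, the difference of each of the 9 measured genes of the axis with the error of the scanner software, and dashed lines at 2-fold in both panels. Only *Il7r* lies beyond a 2-fold line at this scaling, and under spike-in scaling it does not.

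The kinases differed little between the arrays. *Jak1*, which binds IL-2Rβ and IL-7Rα, had signals of 22301 and 10073 and levels of 5.45 on Control and 5.47 on RFF4, a difference of 0.02 ± 0.20. *Jak3*, the kinase bound to the common γ chain, had levels of 3.75 and 3.66 on its brighter probe, a difference of -0.09 ± 0.20. Its dimmer probe had levels of 3.63 and 3.41, a difference of -0.22 ± 0.20. *Jak1* and the brighter *Jak3* probe lay within the software error at this scaling, and both genes were over 2-fold lower only after spike-in scaling, at -1.10 and -1.21. The difference between the 2 kinases, which no constant of scaling alters, was 0.11 ± 0.29.

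Both STAT5 genes were lower on the array labelled RFF4, in all 10 alternatives. *Stat5a* had signals of 2584 on Control and 813 on RFF4 and levels of 2.34 and 1.84, a difference of -0.50 ± 0.20, or 1.41-fold. *Stat5b* had levels of 4.25 and 3.54 on its brighter probe, a difference of -0.70 ± 0.20, or 1.63-fold, and 3.63 and 2.93 on its dimmer probe, a difference of -0.70 ± 0.20. The *Stat5b* probes lay 0.0045 apart. These differences were not extreme among all genes, since 18.7% of genes lay below *Stat5a* and 10.8% below *Stat5b*. Among genes of similar signal to each, 19.8% lay below *Stat5a* and 7.23% below *Stat5b*. Relative to *Jak1*, *Stat5a* was 1.44-fold and *Stat5b* 1.65-fold lower on the array labelled RFF4 than on the Control array, by 0.52 ± 0.29 and 0.73 ± 0.29. After quantile normalization and cyclic loess these gaps were 0.29 and 0.28 for *Stat5a*, no larger than the error, and 0.57 and 0.61 for *Stat5b*.

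Over the axis as a whole, 4 of the 9 measured genes were above 0, where 48.9% of all genes were, and 5 were below, with a median of -0.09 beside -0.015 over all genes. The difference was larger than the software error for 6 of 9 genes, 2 higher (*Il7r* and *Il2rg*) and 4 lower (*Il2ra*, *Stat5b*, *Stat5a* and *Il15ra*). Of all genes 70.3% exceeded their error, 35.5% upward and 34.8% downward, so that the share in the axis is close to that background. The differences of the 9 genes spanned 2.78, and 1.24 without *Il7r*. *Il7r* stood 1.54 ± 0.29 above *Il2rg*, its partner chain in the receptor for IL-7, and 1.71 ± 0.29 above *Il2rb*, both larger than the error of such a comparison. Over the 10 alternatives these gaps ran from 1.41 to 1.75 and from 1.56 to 2.18.

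**Figure D3:**
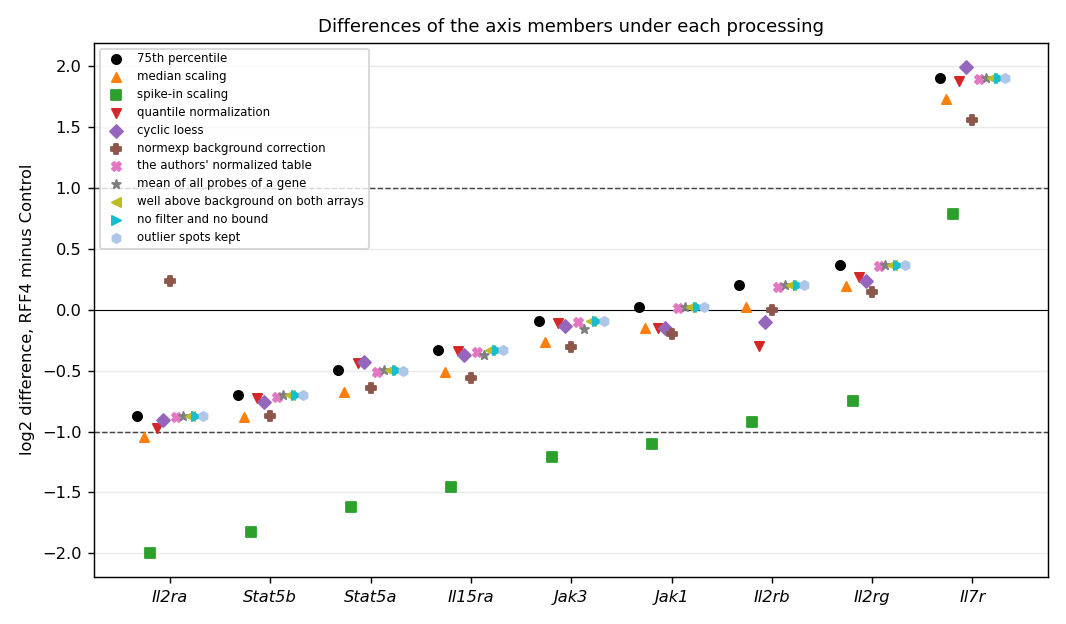
RFF4 minus Control difference, log2, of the 9 measured genes under the scaling used here (black, 75th percentile) and 10 alternatives, with dashed lines at 2-fold. *Il7r* is above 0 under each, from 0.78 to 1.99, while *Il2rb*, *Il2rg*, *Jak1* and *Il2ra* lie on both sides of 0, and spike-in scaling (green squares) places every gene lowest.

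The other ligands and receptors that share the common γ chain, or are close relatives, were taken as a list of 10 genes, of which 8 gave a difference with a median of 0.067, and *Il9* and *Tslp* were not well above background on either array. Among them 3 were over 2-fold higher and 0 lower at this scaling, beside 12.3% and 5.05% of all genes. Without a filter, where *Il9* and *Tslp* also count, 5 were over 2-fold higher and 1 lower, beside 30% and 4.7% of all genes. After median scaling and after cyclic loess 2 were over 2-fold lower, beside 7.98% and 4.84% of all genes. After quantile normalization and after normexp 1 was, beside 5.35% and 3.92%. After spike-in scaling 5 were, beside 56.7%. *Il9r*, the receptor chain for IL-9, had levels of -4.31 on Control and -1.42 on RFF4, a difference of 2.90, and its other probe gave 1.34. *Il21*, a cytokine of helper T cells, had levels of -4.31 and -1.95, a difference of 2.36. *Il2*, the growth factor that IL-2Rα captures, had levels of -3.93 and -2.12, a difference of 1.81. These 3 were above 0 in all 10 alternatives, with *Il2* below 2-fold at 0.69 after spike-in scaling, and all lay in the dimmest eighth of genes, of which 27.0% were over 2-fold higher. The lower members, named after their values were seen, were *Il21r*, the receptor chain for IL-21, at 5.14 on Control and 4.24 on RFF4, a difference of -0.90, *Il4ra* at -0.42, and *Il4*, not well above background on the RFF4 array, with a bound of -0.93. *Il21r* was over 2-fold lower in 4 of 10 alternatives. The median of the list had no stable sign and was -0.11 after median scaling and -0.13 after quantile normalization.

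The other JAK and STAT genes were all lower on the array labelled RFF4, 7 of 7, where 51.1% of all genes were lower by any amount. The median of the 7 was -0.45. At this scaling 0 of 7 were over 2-fold higher or lower, beside 12.3% and 5.05% of all genes. *Stat3*, which transmits IL-21 and IL-6 signals, was at 6.16 on Control and 5.71 on RFF4, a difference of -0.45, and its other probe gave -1.13. *Stat4*, the transducer of IL-12, was at 4.60 and 3.88, a difference of -0.71. With *Stat5a* and *Stat5b*, the 2 STAT genes of the axis, all STAT genes listed were lower at this scaling, and *Stat5a* and *Stat5b* were neither the lowest nor the highest among them. Under each of the 10 alternatives all 7 other JAK and STAT genes were below 0. The number over 2-fold lower was 1 after median scaling, after normexp and in the authors' table, beside 7.98%, 3.92% and 5.22% of all genes. After spike-in scaling it was 7, where 56.7% of all genes were over 2-fold lower.

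Of the feedback inhibitors of JAK and STAT signaling 6 of 9 were above 0, where 48.9% of all genes were, with a median of 0.31, and 0 were over 2-fold higher or lower, beside 12.3% and 5.05% of all genes. *Ptpn6*, a phosphatase that removes activating phosphates, was at 5.26 on Control and 5.66 on RFF4, a difference of 0.40. *Cish*, a gene that STAT5 induces and that restrains the IL-2 receptor, was at 3.44 on the RFF4 array, a difference of 0.44. The lower members were *Ptpn2* (-0.50), *Sh2b3* (-0.43) and *Pias1* (-0.27), named here after their values were seen. The median of this list was above 0 in 9 of 10 alternatives and was -0.81 after spike-in scaling, where 9 of 9 were below 0.

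Survival and growth genes that STAT5 induces, or that decide lymphocyte survival, gave 5 above 0 and 6 below of 11, with a median of -0.20, where 48.9% of all genes were above 0. At 2-fold 0 were higher and 0 lower, beside 12.3% and 5.05% of all genes, and after spike-in scaling 8 were over 2-fold lower, where 56.7% of all genes were. The cyclins *Ccnd2*, at 5.96 on Control and 6.06 on RFF4, and *Ccnd3*, at 5.38 and 6.05, had differences of 0.10 and 0.67. The sign of *Ccnd2* turned in 5 of 10 alternatives and that of *Ccnd3* only after spike-in scaling, at -0.45. Named after their values were seen, the survival genes of the *Bcl2* family were *Bcl2* itself, at 4.35 and 3.74, *Mcl1*, at 5.44 and 5.23, and *Bcl2l1*, at 3.79 and 4.09. Their differences were -0.61, -0.20 and 0.30, and the death-promoting relative *Bcl2l11* had -0.26. *Bcl2*, *Mcl1* and *Bcl2l11* were below 0 in all 10 alternatives, and *Bcl2l1* was above 0 in 9 and -0.82 after spike-in scaling.

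**Figure D4:**
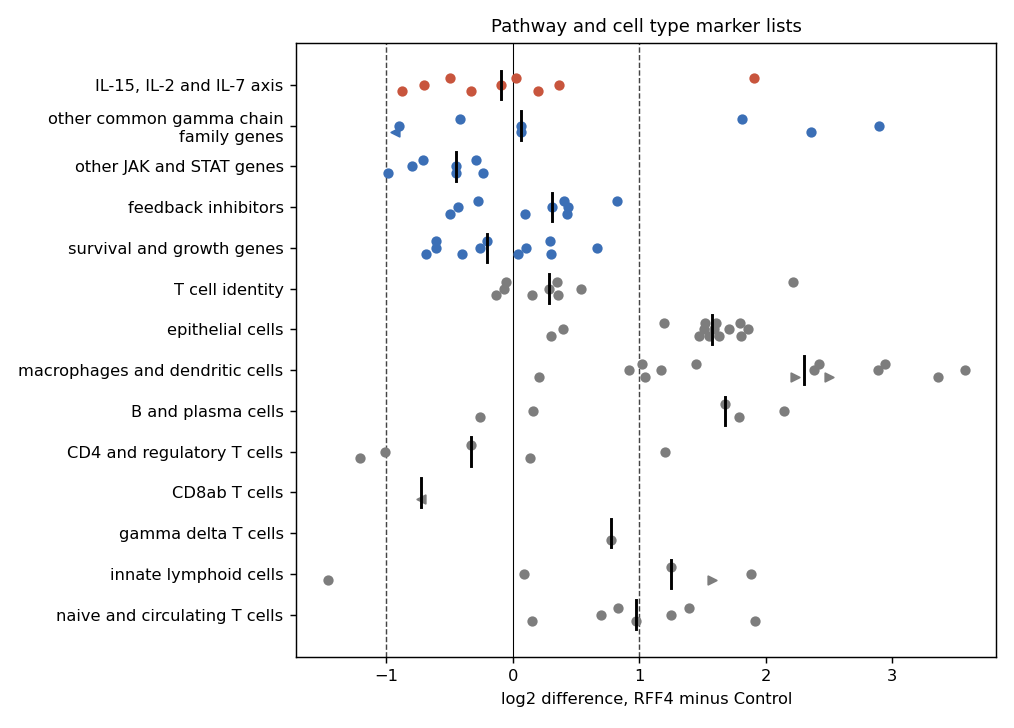
RFF4 minus Control difference, log2, of each gene of the axis (red), of 4 pathway lists (blue) and of 9 lists of cell type markers (gray), with the median of each list as a black bar, arrowheads for genes known only as a bound, and dashed lines at 2-fold. At this scaling the medians are -0.09 for the axis, -0.45 for other JAK and STAT genes and 0.31 for feedback inhibitors, the last turning to -0.81 after spike-in scaling, and the epithelial and macrophage lists lie to the right.

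The remaining marker lists give the company in which these values stand. The epithelial list, led by *Lgals4* (1.86), *Vil1* (1.80), *Krt20* (1.80) and *Krt19* (1.71), had a summed level of 7.93 on Control and 9.53 on RFF4. The macrophage and dendritic cell list, led by *Cx3cr1* (3.57), *Cd74* (3.37), *H2-Aa* (2.95) and *H2-Ab1* (2.89), had a summed level of 6.34 and 7.61. In this sum the bright *Itgax* (0.20) and *Itgam* (0.92), named after their values were seen, weigh most on the Control array. The lowest of the 3 *Itgam* probes gave -0.39. Of 8 markers of B and plasma cells 5 gave a difference, 4 above 0, where 48.9% of all genes were, and 1 below. *Mzb1* was at 2.15, *Ms4a1* at 1.79, *Jchain* at 1.68 and *Cd79b* at -0.26. The summed level of this list was 4.71 on Control and 5.86 on RFF4. *Cd79a* and *Pax5* were not well above background on either array. *Cd8b1*, which the sort should have removed, was dim but well above background on the Control array, at -3.52, and not on the RFF4 array, where its bound gives a difference of at most -0.72. Among markers of γδ T cells *Sox13* was at 0.78, *Cd163l1* was not well above background on either array, and the other 4 have no probe. Of the T cell identity list 9 of 10 genes were measured, with a median of 0.29 that turned to -0.22 after quantile normalization, -0.07 after cyclic loess and -0.84 after spike-in scaling, a summed level of 10.23 and 10.54, and *Cd2* over 2-fold higher at 2.22. The part of any of these cells in the values of the axis was not tested.

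Promoter sequences were taken from RefSeq, assembly GRCm38.p6, as windows of 300 bases from 250 before to 50 after a start of transcription, on the strand of the gene. They were at hand for 8 of the 10 genes, in 11 windows, and *Il2rb* and *Il15* were not in the table used. The windows of *Il7r*, the gene with the highest difference, *Il2rg*, its partner chain, and *Il2ra*, the gene with the lowest, are shown, with the motif letters found in capitals. The motifs searched on both strands were TGGGAA, the core bound by RBPJ, its longer form GTGGGAA, and TTCNNNGAA, the form bound by STAT5, where N is any base. GTGGGAA contains TGGGAA, and the matches found do not overlap.
*Il7r*, chr15:9529827-9530126, minus strand: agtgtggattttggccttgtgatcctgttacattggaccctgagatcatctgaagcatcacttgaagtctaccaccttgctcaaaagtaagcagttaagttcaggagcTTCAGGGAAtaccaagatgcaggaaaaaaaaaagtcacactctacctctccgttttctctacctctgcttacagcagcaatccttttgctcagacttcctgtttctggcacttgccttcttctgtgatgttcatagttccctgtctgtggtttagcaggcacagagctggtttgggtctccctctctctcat
*Il2rg*, chrX:101268206-101268505, minus strand: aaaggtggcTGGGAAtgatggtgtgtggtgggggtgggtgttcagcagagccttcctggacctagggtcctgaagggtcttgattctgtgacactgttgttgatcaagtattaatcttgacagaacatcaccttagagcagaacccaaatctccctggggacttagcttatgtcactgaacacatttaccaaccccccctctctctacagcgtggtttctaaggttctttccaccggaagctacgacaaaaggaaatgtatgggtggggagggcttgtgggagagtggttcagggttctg
*Il2ra*, chr2:11642542-11642841, plus strand: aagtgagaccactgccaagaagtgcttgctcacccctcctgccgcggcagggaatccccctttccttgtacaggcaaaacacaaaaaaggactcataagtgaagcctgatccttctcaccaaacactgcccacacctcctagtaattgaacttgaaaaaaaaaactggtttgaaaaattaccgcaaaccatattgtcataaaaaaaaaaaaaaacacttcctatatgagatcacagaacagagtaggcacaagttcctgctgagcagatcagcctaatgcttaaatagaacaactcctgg

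TGGGAA was found in 1 of the 11 windows, that of *Il2rg*, from position -241, where 25.6% of the 32851 windows of all genes hold it. GTGGGAA was found in 0 of 11, where 6.38% of all windows hold it. TTCNNNGAA was found in 1 of 11, that of *Il7r*, as TTCAGGGAA from position -142, where 8.30% of all windows hold it. These counts describe the letters of the windows only, and no binding was measured.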

How the data were processed

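RNA of 2 pooled samples, 1 per genotype, was measured on 1-color Agilent mouse arrays. The authors deposited intensity values from Feature Extraction 10.7.1.1, with background subtracted on a linear scale and no normalization between arrays. They also deposited a table of normalized values, treated as a score because its log base is not stated. Apart from a constant, it holds the same differences as the scanner signals on the log2 scale.

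For the analysis, spots of controls and outliers were removed, log2 values were taken, the 75th percentile of each array was subtracted and spots of a probe were averaged. A probe passed as well above background with 50% or more of its spots marked so by the software. RefSeq names were found for 27509 of 55679 probes, matched by accession (GRCm38.p6), and a gene was represented by its brightest probe. A gene below background on 1 array has a bound. Differences beyond 2-fold (log2 of 1) were counted, and 4-fold was also counted. Precision is limited by 1 array per group. The technical SD of a difference, from probes spotted 10 times, was 0.16.

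The genes, lists and alternatives were chosen with earlier results of these data known. Named are all 10 genes of the axis, list genes past 2-fold (up to 6, otherwise the 2 brightest) and up to 4 markers per cell type list. Some list genes and markers beyond these limits are also named, chosen with their values known. In all, 10 alternatives were tried: scaling to the median or to 8 spike-in controls, quantile normalization, cyclic loess, normexp (offset 50), the normalized table, the mean of the probes of a gene, both arrays above background, no filter, and outliers kept. Python 3.11.15 (numpy 2.4.6, pandas 2.3.3, matplotlib 3.10.9) and R 4.3.3 (limma 3.58.1) were used, and the steps were tested on simulated data. The values of some marker genes are not reported here.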

Additional observations from a re-analysis of the deposited data

How the results depend on the processing

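The 3 main results moved with the scaling. The count of genes of the axis over 2-fold lower, 0 with the 75th percentile, was 1 after median scaling (*Il2ra*) and 6 after spike-in scaling. The count over 2-fold higher, 1 otherwise (*Il7r*), was 0 after spike-in scaling. The median over the genes, -0.09, was -0.27 after median scaling, -1.21 after spike-in scaling and -0.30 after quantile normalization. For all genes, the median moved by -0.17, -1.08 and -0.03 under the same settings. With the 75th percentile 4 genes of the axis were above the median of all genes and 5 below, which a constant of scaling can hardly alter, and the numbers were 2 and 7 after quantile normalization and after cyclic loess, and 2 and 8 without a filter. The other 7 alternatives left both counts at 1 and 0 and moved the median by less than the technical SD.

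Over all genes, the counts over 2-fold higher and lower, 1667 and 683, were 1318 and 1087 after median scaling, 198 and 8056 after spike-in scaling and 6272 and 982 without a filter. The share of lower genes was 56.7% with spike-in scaling. The direction of *Il7r*, *Il15ra*, *Jak3*, *Stat5a* and *Stat5b* held in all 10 alternatives, and that of *Il2rb*, *Il2rg*, *Jak1* and *Il2ra* turned in at least 1. Counts over the 10 alternatives are not counts of independent checks. The normalized table, both arrays above background, no filter and outliers kept left these values nearly unchanged. The mean of the probes can alter only genes with 2 probes. No paired analysis was possible because each group has 1 array, and for the same reason no array could be left out. Signals near background limit *Il15* and, on the RFF4 array, *Il2ra*.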
